A study of Homo sapiens with 16 samples.

Results

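The genes described are the subunits of the hypoxia-inducible factor (HIF) and the enzymes and partners that tie it to oxygen. The 10 genes were taken from a fixed list of symbols: HIF1A, EPAS1, ARNT, HIF3A, EGLN1, EGLN2, EGLN3, VHL, HIF1AN and CITED2. On the array, 9 of the 10 had a probe set annotated with their symbol alone, out of 18417 such genes in all, and each of the 9 had exactly 1 such probe set. The only probe set of EGLN2, a prolyl hydroxylase, is also annotated to the read-through gene RAB4B-EGLN2, so no value is given for EGLN2. Of the 9 genes, 8 were bright enough to be tested among 12639 genes, and HIF3A was not.

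RNA came from 4 hypoxia-resistant (HR) human sublines, RPMI8226-HR, KMS-11-HR, U266-HR and IM-9-HR, kept for 24 hours at 1% oxygen, and from the parental RPMI8226, KMS-11, U266 and IM-9, kept for 24 hours at 20% oxygen, with 2 arrays per group and 16 arrays in all. No other agent or allele is named in the labels. The design holds no HR cells at 20% oxygen and no parental cells at 1%, and the part of resistance and that of oxygen therefore cannot be told apart in any comparison. Each line has 1 HR subline. The labels call all 4 lines myeloma-derived, although IM-9 is widely described as a B lymphoblastoid line.

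HIF is a transcription factor made of an oxygen-regulated alpha subunit, encoded by HIF1A, EPAS1 or HIF3A, and a stable partner encoded by ARNT. When oxygen is present, the EGLN prolyl hydroxylases modify the alpha subunit, the VHL ubiquitin ligase then binds it, and it is degraded; the asparaginyl hydroxylase HIF1AN separately blocks its contact with the coactivators EP300 and CREBBP, and CITED2 competes for the same coactivators. EGLN1, EGLN3 and CITED2 are themselves known as genes that HIF can induce, which makes them feedback genes of the pathway. Most of this control acts on protein, and the arrays measured transcripts, so neither HIF protein nor its hydroxylation was measured.

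EGLN3 and EGLN1 are the 2 listed genes that rose in at least 3 lines, and EPAS1 and HIF1A are the 2 whose HR and parental levels were furthest apart downward. The 250 bases upstream of their annotated transcription start (for HIF1A, 1 of 2 starts) are therefore printed, from RefSeq on GRCh38.p14, 5′ to 3′ on the gene's strand, where 9 of the 10 listed genes matched. Capitals mark the core letters of HIF response elements, ACGTG and GCGTG, searched on both strands (as CACGT and CACGC on the other strand; ACGTG on the 2 strands overlaps within CACGTG).
EGLN3, chr14:33951075-33951324, minus strand: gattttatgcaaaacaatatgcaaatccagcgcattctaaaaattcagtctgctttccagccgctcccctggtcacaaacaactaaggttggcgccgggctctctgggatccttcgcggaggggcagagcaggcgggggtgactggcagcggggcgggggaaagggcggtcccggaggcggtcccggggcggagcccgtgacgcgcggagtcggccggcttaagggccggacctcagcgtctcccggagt
EGLN1, chr1:231422288-231422537, minus strand: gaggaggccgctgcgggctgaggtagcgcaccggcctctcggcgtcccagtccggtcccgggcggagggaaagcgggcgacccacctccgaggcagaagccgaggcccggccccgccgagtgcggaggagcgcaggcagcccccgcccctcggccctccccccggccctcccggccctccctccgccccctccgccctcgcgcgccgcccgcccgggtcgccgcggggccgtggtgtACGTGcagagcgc
EPAS1, chr2:46297157-46297406, plus strand: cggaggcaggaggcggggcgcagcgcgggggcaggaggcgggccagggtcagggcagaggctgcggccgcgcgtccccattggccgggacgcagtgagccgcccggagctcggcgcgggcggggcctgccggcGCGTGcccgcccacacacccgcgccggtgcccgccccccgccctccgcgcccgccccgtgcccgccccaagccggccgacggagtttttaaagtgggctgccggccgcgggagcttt
HIF1A, chr14:61695263-61695512, plus strand: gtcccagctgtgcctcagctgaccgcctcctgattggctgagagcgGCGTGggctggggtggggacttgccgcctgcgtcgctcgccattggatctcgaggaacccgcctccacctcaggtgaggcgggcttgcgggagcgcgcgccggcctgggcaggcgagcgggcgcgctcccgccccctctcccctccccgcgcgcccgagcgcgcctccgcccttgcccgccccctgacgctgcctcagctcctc
The EGLN1 window held 1 ACGTG, whose leading base lies at position -13 from the start, and the EGLN3 window held 0 matches to either motif. The EPAS1 window and the printed HIF1A window each held 1 GCGTG, at -117 and -204. HIF1A has a second start in the table, whose window at chr14:61697462-61697711 held 0 matches (GC content 31.2%). Among all 35116 such windows in the RefSeq table, 18.5% held ACGTG, 32.2% held GCGTG and 43.2% held at least 1 of the motifs, and the windows differ in GC content (81.2% for EGLN1 and 64.0% for EGLN3). A match describes the letters in this window and is not evidence of binding.

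Array medians lay between 6.22 and 6.34 on the log2 scale, the 2 arrays of each group had an r of 0.993 to 0.996 over probe sets, and for 16 of 16 arrays the 3 closest arrays came from the same line. Of 9 plasma cell markers, 7 or 8 had a group mean above the filter level of 6.27 (the median of all values) in every group. CD38 was above it on the 4 RPMI8226 and RPMI8226-HR arrays alone. SLAMF7 was above it on 8 arrays, those of the U266 and IM-9 groups. Its means in the KMS-11 and RPMI8226 groups lay from 4.71 to 5.73. B cell markers were above it for 6 of 7 genes in IM-9-HR and IM-9, 4 in RPMI8226-HR and RPMI8226, and 3 in the KMS-11 and U266 groups. Of 7 T and NK cell markers, CD3D, CD3E, CD3G and CD2 were above it on 0 arrays, NKG7 on 16, CD8A on 4 and GNLY on 3. Of 6 myeloid markers, CD14, LYZ, CSF1R, ITGAM and MPO were above it on 0 arrays and CD68 on 14. The CD68 means were highest in RPMI8226 (8.52) and RPMI8226-HR (8.45), and were 8.10 in IM-9-HR and 6.98 in IM-9. Of 5 stromal markers COL1A1 was above it on 16 arrays, COL3A1 on 4, COL1A2 on 1 and DCN and LUM on 0, and of 2 measured erythroid markers HBB was above it on 2 and ALAS2 on 0. The labels do not say whether paired arrays stem from separate cultures, so p-values within lines measure the spread between these arrays, which may be technical.

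**Figure D1:**
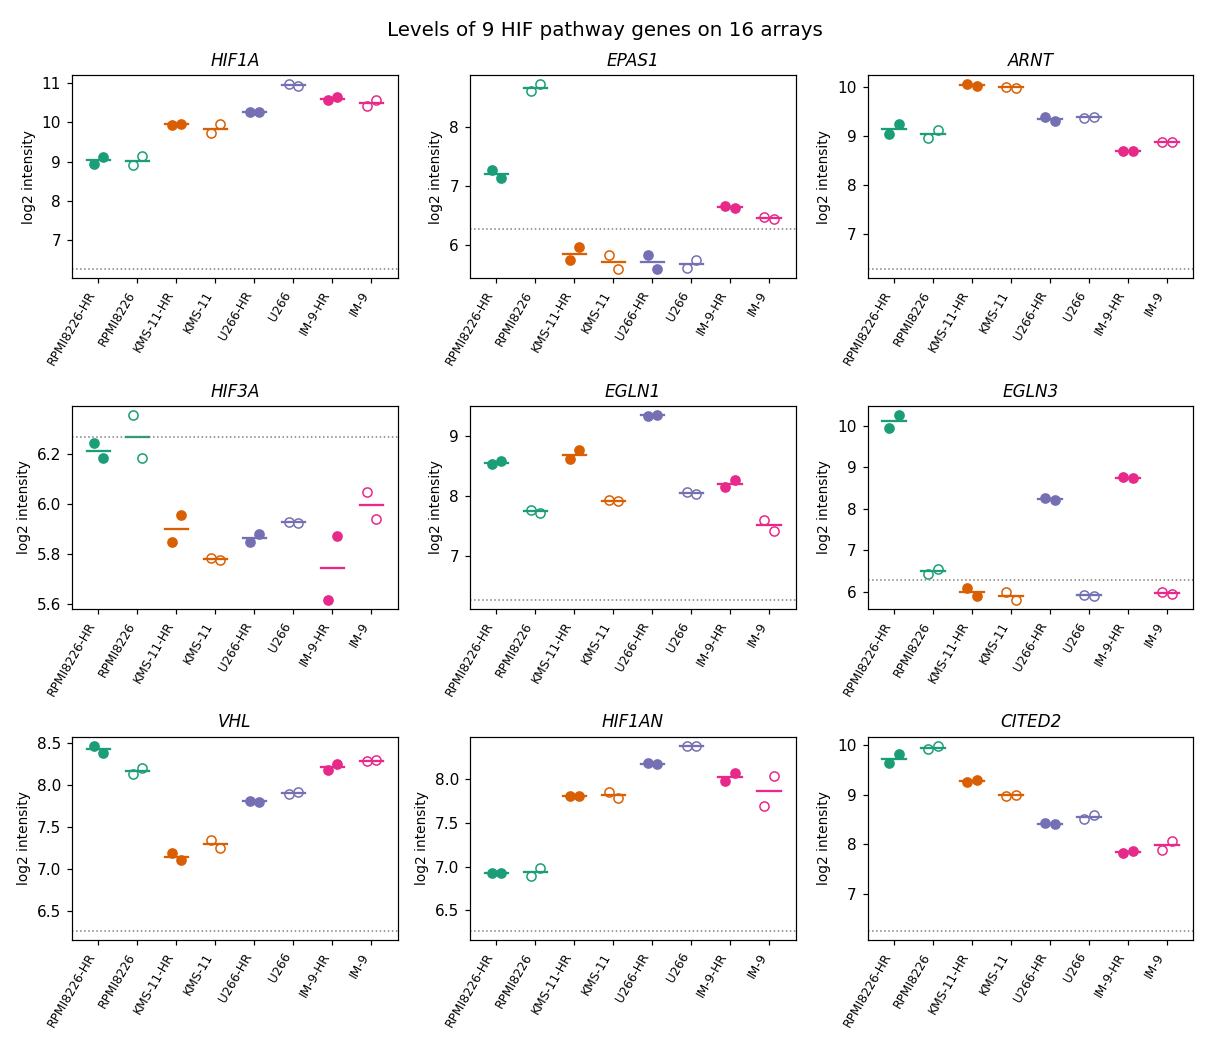
Level of each of the 9 measured genes on each of 16 arrays, in log2 intensity (y axis, a separate range per panel), for each HR group (filled points) beside its parental group (open points). Short lines are group means over 2 arrays, colours are lines, and the dotted line is the filter level of 6.27. EGLN1 is higher in each HR group than in its parental group, whereas EGLN3 is high in 3 HR groups and stays under the dotted line in KMS-11-HR and KMS-11.

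The main comparison asked which of these genes differed between HR and parental cells within each line. The prolyl hydroxylase genes rose: EGLN1 in all 4 lines, by 0.69 to 1.29 on the log2 scale, and EGLN3 in RPMI8226, U266 and IM-9, by 2.33 to 3.61. The alpha subunits fell in 1 line each, EPAS1 in RPMI8226 and HIF1A in U266. VHL rose slightly in RPMI8226, CITED2 was just past the threshold in opposite directions in RPMI8226 and KMS-11, and ARNT and HIF1AN passed in no line, like 42.0% of all tested genes. Out of 32 gene and line combinations, 12 passed an adjusted p of 0.05 in limma, 9 of them higher and 3 lower in HR cells.

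Against the background, 3 genes rose and 2 fell of the 8 tested in RPMI8226, where 26.0% of all tested genes passed (10.7% higher and 15.3% lower). In KMS-11, 2 rose and 0 fell, with 8.27% of all genes passing (2.44% higher and 5.83% lower). In U266, 2 rose and 1 fell, with 18.1% passing (9.68% higher and 8.42% lower), and in IM-9, 2 rose and 0 fell, with 35.7% passing (14.4% higher and 21.3% lower). In IM-9, 2 of 8 is a smaller share than that of all genes. A rise in at least 3 lines was seen for 2 of the 8 genes, EGLN1 and EGLN3, and for 1.18% of all tested genes, and a rise in all 4 for 1 of the 8 and for 0.348%. None of the 8 fell in 3 lines or more, as 1.51% of all genes did. The median difference of the 8 genes was 0.06 in RPMI8226, beside −0.01 over all tested genes, and 0.10 in KMS-11, beside −0.02. It was −0.07 in U266, beside −0.01, and 0.14 in IM-9, beside −0.06.

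Positions of whole genes are given from RefSeq on GRCh38.p14. EGLN3, at chr14:33924227-33951074, encodes the prolyl hydroxylase PHD3. Its level was 9.95 and 10.25 on the RPMI8226-HR arrays, against 6.42 and 6.55 on the parental arrays, in log2 intensity. In U266 the arrays gave 8.26 and 8.21 in HR cells and 5.91 and 5.90 in parental cells. IM-9 gave 8.76 and 8.73 in HR cells and 5.99 and 5.94 in parental cells. In these 3 lines the HR arrays lay far above the parental arrays, with no overlap. KMS-11 differed: its HR arrays gave 6.08 and 5.90 and its parental arrays 5.98 and 5.80, so the groups overlapped and all 4 values were under the filter level.

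The EGLN3 difference was 3.61 ± 0.10 in RPMI8226 (12.2-fold, SE, adjusted p = 4.03e-11 in limma), which ranked 3 among the rises of 12639 genes in that line. It was 2.78 ± 0.10 in IM-9 (6.85-fold, adjusted p = 9.51e-10), at rank 13, and 2.33 ± 0.10 in U266 (5.02-fold, adjusted p = 3.3e-09), at rank 22. Parental levels in U266 and IM-9 lay below the filter level, where log2 intensities of an array are compressed, so these folds may understate the change. In KMS-11 the difference was 0.10 ± 0.10, with a 95% confidence interval from −0.11 to 0.32 and adjusted p = 0.580. The EGLN3 effect differed between lines in the F test (adjusted p = 1.12e-08), a test that 45.4% of all genes passed, and in 6 of 6 pairs of lines. RPMI8226 exceeded KMS-11 by 3.51 ± 0.14, IM-9 by 0.83 ± 0.14 and U266 by 1.28 ± 0.14, and the smallest difference, U266 minus IM-9, was −0.45 ± 0.14 (adjusted p = 0.0265). Ordered by level, RPMI8226-HR, IM-9-HR, U266-HR and parental RPMI8226 were each separate from the next group, and the remaining groups lay between 5.89 and 5.99.

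EGLN1, at chr1:231363756-231422287, encodes PHD2, the main oxygen sensor among the prolyl hydroxylases in most cells. Its arrays gave 8.54 and 8.58 in RPMI8226-HR, against 7.77 and 7.72 in RPMI8226. In KMS-11 they gave 8.61 and 8.77 in HR cells and 7.93 and 7.91 in parental cells. In U266 they gave 9.34 and 9.35 in HR cells and 8.08 and 8.03 in parental cells. Every HR array lay above every parental array of its line, and also above every parental array of the other lines. IM-9 gave the lowest levels, 8.15 and 8.27 in HR cells and 7.61 and 7.42 in parental cells.

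EGLN1 was higher by 1.29 ± 0.08 in U266 (2.45-fold, adjusted p = 7.52e-08 in limma), by 0.81 ± 0.08 in RPMI8226 (1.75-fold, adjusted p = 6.21e-06), by 0.77 ± 0.08 in KMS-11 (1.70-fold, adjusted p = 8.08e-05) and by 0.69 ± 0.08 in IM-9 (1.62-fold, adjusted p = 1.82e-05). In KMS-11 that rise ranked 48 among 12639 genes, against 110 in U266, 181 in RPMI8226 and 369 in IM-9. The F test found a difference of the effect between lines (adjusted p = 0.00208), and the pairs that passed were those with U266: RPMI8226 minus U266 was −0.48 ± 0.11, KMS-11 minus U266 was −0.52 ± 0.11 and U266 minus IM-9 was 0.60 ± 0.11. The other 3 pairs did not pass, with differences from 0.04 to 0.12, and the widest of their intervals reached 0.35. In parental cells EGLN1 ranged from 7.52 in IM-9 to 8.05 in U266, and 5 of 6 pairs of parental lines passed.

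EPAS1, at chr2:46297407-46386697, encodes the alpha subunit HIF-2 alpha. It gave 7.27 and 7.14 in RPMI8226-HR, against 8.61 and 8.73 in RPMI8226. RPMI8226 was the line with the highest level, and its 2 groups did not overlap. IM-9-HR gave 6.65 and 6.62 and IM-9 6.48 and 6.44, while the 8 arrays of the KMS-11 and U266 groups lay between 5.58 and 5.96, under the filter level. EPAS1 was lower by 1.47 ± 0.11 on the log2 scale in RPMI8226-HR (2.76-fold, adjusted p = 6.21e-07), at rank 49 among the falls. The differences in KMS-11, U266 and IM-9 were 0.14, 0.04 and 0.18 (± 0.11 each) and did not pass, with intervals that reached no higher than 0.41 and no lower than −0.20. A fall could hardly have shown in KMS-11 or U266, where every array lay under the filter level. In IM-9 the parental arrays, at 6.48 and 6.44, lay little above it. They were still above the other 2 lines, with parental KMS-11 minus IM-9 at −0.75 ± 0.11 and U266 minus IM-9 at −0.79 ± 0.11. A fall in IM-9 to the levels of KMS-11 and U266 could therefore have shown. A fall of the full size seen in RPMI8226 might not have shown in full. The IM-9 interval reached no lower than −0.05. The RPMI8226 effect differed from each of the other 3 (by −1.64 ± 0.15 against IM-9, −1.61 ± 0.15 against KMS-11 and −1.5 ± 0.15 against U266), and the F test gave adjusted p = 5.76e-06. In bulk RNA, fewer cells with the transcript and less of it per cell cannot be told apart.

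HIF1A, at chr14:61695513-61748258, encodes the broadly expressed alpha subunit. U266-HR gave 10.26 and 10.27, against 10.96 and 10.91 in U266, so HIF1A was lower by 0.67 ± 0.09 on the log2 scale in HR cells (1.59-fold, adjusted p = 0.000211). Parental U266 had the highest level of the 8 groups, and after the fall U266-HR still lay above the KMS-11 and RPMI8226 groups. RPMI8226-HR gave 8.95 and 9.11 beside 8.90 and 9.14 in RPMI8226, the lowest levels. KMS-11-HR gave 9.93 and 9.95 beside 9.74 and 9.94 in KMS-11, and IM-9-HR 10.56 and 10.63 beside 10.41 and 10.55 in IM-9. The differences in these 3 lines were 0.01, 0.10 and 0.11 (± 0.09 each) and did not pass, and the highest bound of their intervals was 0.31. The effect in RPMI8226 minus that in U266 was 0.68, KMS-11 minus U266 was 0.77 and U266 minus IM-9 was −0.78 (± 0.13 each), with an F test at adjusted p = 0.000854.

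**Figure D2:**
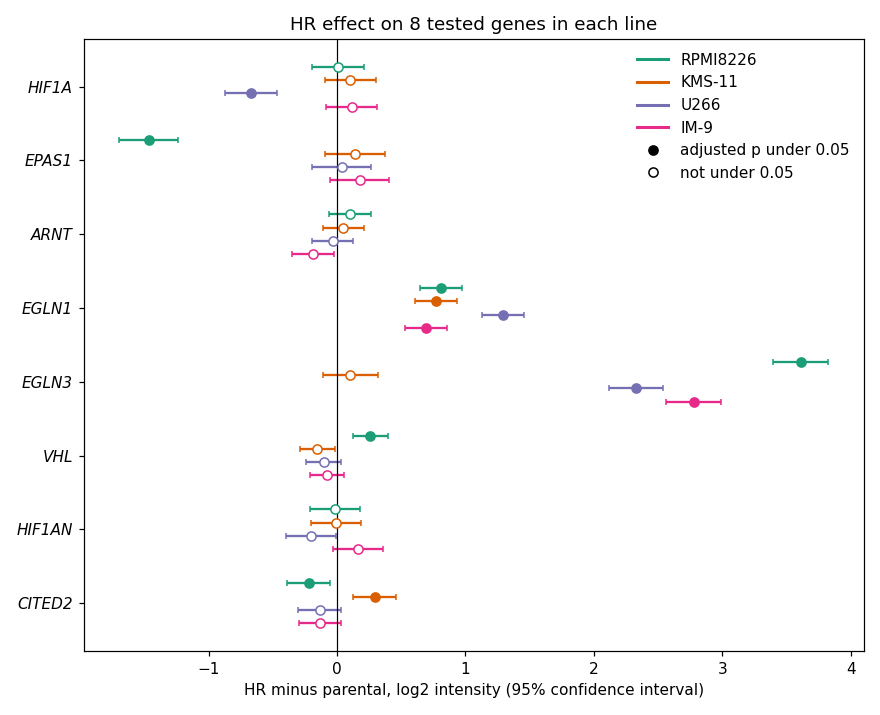
Difference of HR minus parental cells in log2 intensity (x axis) for the 8 tested genes (y axis) in each line (colours), from the limma fit of 16 arrays as 8 groups. Bars are 95% confidence intervals and filled points have an adjusted p under 0.05. The EGLN3 values of RPMI8226, IM-9 and U266 stand at 3.61, 2.78 and 2.33, while the KMS-11 value of 0.10 lies with the values that did not pass.

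The partner subunit gene ARNT, at chr1:150809713-150876599, had HR minus parental differences of 0.10 in RPMI8226, −0.04 in U266, 0.05 in KMS-11 and −0.19 in IM-9 (± 0.07 each). IM-9 came closest, with 8.69 and 8.70 in HR cells against 8.88 and 8.89 in parental cells (adjusted p = 0.0677), and it passed under 6 of 25 alternatives, among them those without any 1 of the 4 RPMI8226 and RPMI8226-HR arrays (adjusted p from 0.0365 to 0.0456). The lines themselves were further apart than the conditions: parental KMS-11 was 1.11 ± 0.07 above parental IM-9. The F test of the effect gave adjusted p = 0.131 (0.0369 without RPMI8226-HR array 1).

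HIF3A, an alpha subunit with inhibitory forms, lies at chr19:46297042-46343433 and was above the filter level on 1 of 16 arrays, a parental RPMI8226 array at 6.35. Its 16 values lay between 5.62 and 6.35, and the group means spanned 0.52. It was therefore not tested with the other genes. In the fit with no filter its differences were −0.05 in RPMI8226, −0.06 in U266, 0.12 in KMS-11 and −0.25 in IM-9 (± 0.09 each), the last with adjusted p = 0.0607.

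VHL, at chr3:10141778-10153667, encodes the substrate receptor of the ligase that recognises hydroxylated HIF alpha. It gave 8.46 and 8.38 in RPMI8226-HR, against 8.12 and 8.20 in RPMI8226. The HR arrays lay above the parental ones, and the difference of 0.26 ± 0.06 passed (1.20-fold, adjusted p = 0.00883). Without RPMI8226 array 1 it was 0.22 (adjusted p = 0.0584), without RPMI8226-HR array 1 it was 0.21 (adjusted p = 0.0647), and with the 4 arrays of the line alone adjusted p was 0.0902. KMS-11, U266 and IM-9 gave −0.15, −0.10 and −0.08 (± 0.06 each), none of which passed. The RPMI8226 effect exceeded that of KMS-11 by 0.41 ± 0.09, of U266 by 0.36 ± 0.09 and of IM-9 by 0.34 ± 0.09, and the F test gave adjusted p = 0.0075. KMS-11-HR and KMS-11 had the lowest VHL levels, from 7.10 to 7.34 over 4 arrays.

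HIF1AN, the asparaginyl hydroxylase gene at chr10:100535943-100559998, gave differences of −0.01 in KMS-11 and RPMI8226 alike, 0.17 in IM-9 and −0.20 in U266 (± 0.09 each), and none passed. The 2 parental IM-9 arrays were further apart than any other pair for this gene, at 7.69 and 8.03, beside 7.98 and 8.07 in IM-9-HR. Without parental IM-9 array 2 the IM-9 difference was 0.34 (adjusted p = 0.0041) and the F test gave adjusted p = 0.00419, against 0.142 with all arrays. The U266 value passed without either parental IM-9 array (adjusted p = 0.0332 in both cases) and with array weights (adjusted p = 0.0408). The lowest levels were those of RPMI8226-HR and RPMI8226, from 6.89 to 6.99.

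CITED2, at chr6:139371807-139374648, encodes the protein that competes with HIF alpha for its coactivators. It gave 9.26 and 9.30 in KMS-11-HR, against 8.97 and 9.0 in KMS-11, a difference of 0.29 ± 0.08 (1.22-fold, adjusted p = 0.0338). In RPMI8226-HR it gave 9.63 and 9.82, against 9.91 and 9.98 in RPMI8226, a difference of −0.22 ± 0.08 (adjusted p = 0.0497). Both calls were fragile. The KMS-11 call was lost without each of the 4 KMS-11 and KMS-11-HR arrays (adjusted p from 0.121 to 0.173, differences from 0.27 to 0.31), with no filter and with arrays centred on their medians, which is 6 of 25 alternatives. The RPMI8226 call was lost under 17 of 25, and without RPMI8226-HR array 1 the difference was −0.12 (adjusted p = 0.342). U266 and IM-9 gave −0.14 and −0.13 (± 0.08 each) and did not pass. The difference between lines held in the F test (adjusted p = 0.00673): RPMI8226 minus KMS-11 was −0.51, KMS-11 minus U266 was 0.43 and KMS-11 minus IM-9 was 0.43 (± 0.11 each), and the pairs without KMS-11 did not pass.

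With the line as the unit, 0 of the 8 genes passed in limma, as did 0% of all 12639 genes (6.27% had an unadjusted p under 0.05). EGLN1 was 0.89 ± 0.12 higher across lines, in 4 of 4 lines (n = 4 lines, adjusted p = 0.335), and EGLN3 2.20 ± 0.53 higher, also in 4 of 4 counting the 0.10 of KMS-11 (adjusted p = 0.764). These were the 2 genes of the 8 with an unadjusted p under 0.05. With line by condition as a random block over the 16 arrays, both passed (adjusted p = 8.5e-05 for EGLN1 and 0.00502 for EGLN3). That setting assumes a common correlation for all genes and does not take the line as the unit. Its error for EGLN3 was 0.34, against 0.53, and 88 of all genes passed under it, against 0. The other 6 genes lay between −0.28 for EPAS1 and −0.02 for HIF1AN and ARNT, each with an interval that included 0.

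The effects were also compared between lines in pairs, and 22 of 48 gene and pair combinations passed, 6 of them for EGLN3, 3 each for HIF1A, EPAS1, EGLN1, VHL and CITED2, 1 for HIF1AN and 0 for ARNT. Between RPMI8226 and U266 5 of 8 genes passed, with 25.6% of all genes passing, and between RPMI8226 and KMS-11 4 of 8, with 17.6%. Between KMS-11 and U266 4 of 8 passed (14.1% of all genes), and between U266 and IM-9 also 4 of 8 (30.3%). Between RPMI8226 and IM-9 3 of 8 passed (31.5%), a share close to that of all genes, and between KMS-11 and IM-9 2 of 8 (17.5%). The single HIF1AN pair was U266 minus IM-9, at −0.37 ± 0.13 (adjusted p = 0.0457).

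In parental cells at 20% oxygen the lines already differed in all 8 tested genes in the F test, as did 94.3% of all genes, and 40 of 48 gene and pair combinations passed. RPMI8226 differed from KMS-11 and from U266 in 8 of 8 genes (76.9% and 79.1% of all genes passed) and from IM-9 in 6 of 8 (73.7%). U266 differed from IM-9 in 7 of 8 (66.5%), and KMS-11 differed from IM-9 in 6 of 8 (63.8%) and from U266 in 5 of 8 (66.0%). Most genes on the array differed between any 2 parental lines, so these counts say little about the 8 genes. Parental RPMI8226 was distinguished by EPAS1, which was 2.21 ± 0.11 above IM-9 and also above KMS-11 and U266, where all parental values lay under the filter level, so that the measured differences of 2.96 and 3.0 may be too small, and by CITED2, which was 1.96 ± 0.08 above IM-9. It had the lowest HIF1A, with RPMI8226 minus U266 at −1.91 ± 0.09, and the lowest HIF1AN, at −1.44 ± 0.09 for the same pair. Parental KMS-11 had the highest ARNT and the lowest VHL, with KMS-11 minus IM-9 at −0.99 ± 0.06. EGLN3 was the gene with the fewest differing pairs, 3 of 6, all of them with RPMI8226 above another line by 0.52 to 0.60 (± 0.10 each). The parental EGLN3 values of KMS-11, U266 and IM-9, from 5.80 to 5.99 over 6 arrays, all lay under the filter level, so differences among these lines could hardly have appeared.

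The genes whose level followed each listed gene most closely over the 8 group means were found by Pearson's r, as a description over 8 points that share lines and arrays. For EGLN1 they were SH3D21 (0.93), the angiogenic factor gene VEGFA (0.92) and the mitophagy receptor gene BNIP3L (0.91), and for EGLN3 they were PLA2G2D (0.90), PLOD1, a collagen lysyl hydroxylase (0.87), and RELL1 (0.85). These 2 genes had 0 other genes above r = 0.95. For the other 6 genes 25 to 213 genes did so, and the closest were KLHL9, ARHGAP5 and IFI35 for HIF1A (0.99 each), MEG3, HRH3 and KRT16 for EPAS1 (0.98 to 0.99) and LDB1, MEMO1 and ESR1 for ARNT (0.98 to 1.00). They were IRF5, ANAPC4 and SEC13 for VHL (0.98 to 0.99), GNPAT, LEO1 and RAD17 for HIF1AN (0.99 to 1.00) and HAGH, ELOB and MTPN for CITED2 (0.99 each).

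Genes that HIF is known to induce gave the setting in which EGLN1 and EGLN3 moved. Of 39 listed targets, 35 were tested. In KMS-11, 27 rose and 0 fell, with a median of 0.78, beside the EGLN3 difference of 0.10 in the same line. In RPMI8226, 25 rose and 1 fell (median 0.78), in U266, 31 rose and 1 fell (median 0.96), and in IM-9, 18 rose and 3 fell (median 0.20). IM-9 thus had the smallest median of the list beside an EGLN3 rise of 2.78. The medians of all tested genes lay between −0.06 and −0.01. Over all tested genes the shares that rose and fell were 10.7% and 15.3% in RPMI8226, 2.44% and 5.83% in KMS-11, 9.68% and 8.42% in U266, and 14.4% and 21.3% in IM-9. In all 4 lines 15 of the 35 rose, beside 0.348% of all genes, and 2 of the 35, HK1 and EPO, passed in no line, beside 42.0%. This list, like the lists below, was chosen with earlier results of these data known. Its counts are therefore a description and not an independent test.

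By the naming rule, the leading targets were AK4, an adenylate kinase of mitochondria, NDRG1, a stress-induced gene, BNIP3, a mitophagy receptor, and P4HA1, a collagen prolyl hydroxylase. In KMS-11 they rose by 1.03 ± 0.11, 1.58 ± 0.11, 2.05 ± 0.07 and 2.01 ± 0.08. BNIP3 gave 8.87 and 8.89 in KMS-11-HR, against 6.87 and 6.78 in KMS-11, on the same arrays on which EGLN3 stayed under 6.27. The single target that fell in at least 3 lines was TFRC, the transferrin receptor, at −1.17 in RPMI8226, −0.71 in U266 and −0.85 in IM-9, with −0.01 in KMS-11. ANKRD37 and DDIT4 were called both ways, rising in RPMI8226, KMS-11 and U266 and falling in IM-9 (−0.65 and −0.54).

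**Figure D3:**
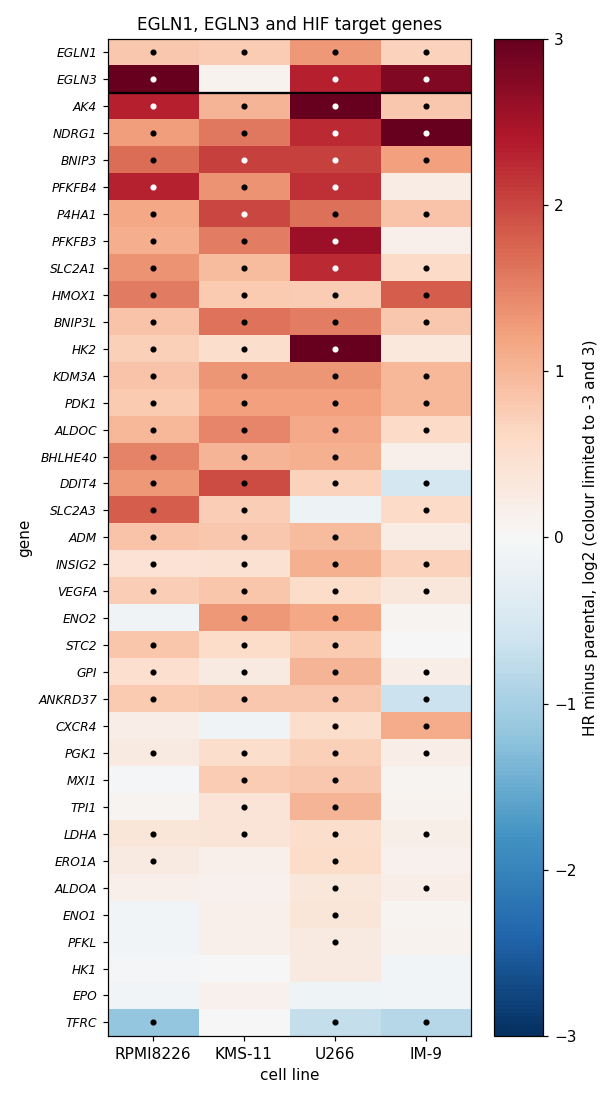
HR minus parental difference in log2 intensity (colour, limited to −3 and 3) for EGLN1 and EGLN3 (above the line) and the 35 tested HIF target genes (below, ordered by mean difference), in each line (x axis). Dots mark an adjusted p under 0.05. In the KMS-11 column 27 targets and EGLN1 carry a dot with a raised value, and EGLN3 does not.

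A further list was of other dioxygenases that use oxygen as a substrate, and 19 of 19 genes were tested. It includes P4HB, a partner subunit of the collagen prolyl hydroxylases that is not itself a dioxygenase. P4HB is counted below as a rise in IM-9 (0.18 ± 0.06) and was called in no other line. In RPMI8226 7 rose and 1 fell, in KMS-11 7 rose and 0 fell, in U266 8 rose and 1 fell, and in IM-9 10 rose and 1 fell, with medians from 0.05 to 0.18. The shares of all genes that rose in these lines were 10.7%, 2.44%, 9.68% and 14.4%, in the same order, and 15.3%, 5.83%, 8.42% and 21.3% fell. P4HA1, the collagen lysyl hydroxylase PLOD1 and the histone demethylase KDM3A rose in all 4 lines, 3 of 19 genes beside 0.348% of all. P4HA1 and KDM3A are also on the list of HIF targets and were counted there too. PLOD1 rose by 0.95 in RPMI8226, 0.89 in U266, 0.79 in IM-9 and 0.61 in KMS-11 (± 0.08 each). PLOD2, a related lysyl hydroxylase, rose by 0.94, 1.74 and 0.90 (± 0.09 each) in KMS-11, U266 and IM-9. In RPMI8226 PLOD2 was at 3.68 and 3.48 in HR cells and 3.35 and 3.57 in parental cells, among the dimmest values given here, and did not pass.

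Among HIF partners and coactivators the direction of the calls differed by line. Of 11 listed genes 9 were tested: 1 rose and 4 fell in RPMI8226, 0 and 1 in KMS-11, 2 and 0 in U266, and 4 and 0 in IM-9, with medians of −0.21, 0.04, −0.06 and 0.18. Calls in either direction took 26.0%, 8.27%, 18.1% and 35.7% of all genes in these lines. The 1 of 9 in KMS-11, 2 of 9 in U266 and 4 of 9 in IM-9 are near these shares and say little about the list. By direction, 10.7%, 2.44%, 9.68% and 14.4% of all genes rose, and 15.3%, 5.83%, 8.42% and 21.3% fell, in the same order. AHR, the aryl hydrocarbon receptor, which also pairs with ARNT, fell by 0.88 ± 0.13 in RPMI8226 and fell by 0.49 ± 0.13 in KMS-11, on the log2 scale, and was 0.48 ± 0.13 higher in U266. In RPMI8226 both HR values and 1 of 2 parental values were under the filter level (5.30 and 5.33 in HR cells, 6.11 and 6.29 in parental cells), and in U266 all 4 values were, the highest at 4.97. EP300, the coactivator that HIF1AN and CITED2 bear on, rose by 0.58 ± 0.08 in U266 and by 0.43 ± 0.08 in IM-9 and was at 0.00 and 0.04 in RPMI8226 and KMS-11. The circadian factor CLOCK and the coactivator NCOA2 fell in RPMI8226 (−0.39 and −0.40) and rose in IM-9 (0.28 and 0.27).

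Among genes of HIF turnover, the calls went both ways. Of 18 listed 15 were tested, and 1 rose and 1 fell in RPMI8226, 1 and 1 in KMS-11, 4 and 1 in U266, and 4 and 3 in IM-9, with medians between −0.09 and 0.04. The shares of all genes called were 26.0%, 8.27%, 18.1% and 35.7% in these lines, and 5 of the 15 passed in no line, beside 42.0% of all genes. Within the VHL ligase, the scaffold gene CUL2 and the adaptor gene ELOB passed in no line, the adaptor gene ELOC fell by 0.37 in RPMI8226 and fell by 0.23 in U266 on the log2 scale, and RBX1, its RING subunit, rose by 0.24 in U266. LIMD1, a scaffold that links EGLN1 and VHL, rose by 0.48 ± 0.07 in RPMI8226 and by 0.50 ± 0.07 in IM-9. WSB1, a ubiquitin ligase component reported to act on VHL, rose by 0.31 ± 0.08 in KMS-11 and by 0.59 ± 0.08 in U266. USP28, a deubiquitinase, and MCM7, a replication helicase subunit, were called both ways, up in U266 by 0.54 and 0.56 and down in IM-9, at −0.24 and −0.46. MCM7 was also the 1 fall of the list in KMS-11, at −0.32 ± 0.07.

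**Figure D4:**
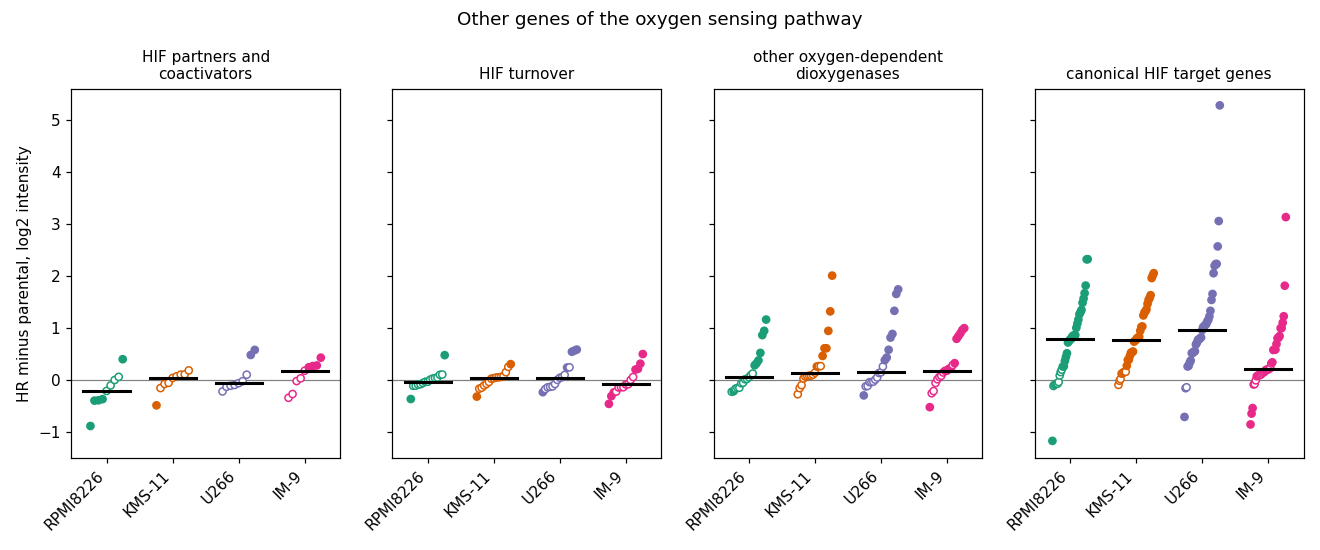
HR minus parental difference in log2 intensity (y axis) of each tested gene of 4 pathway lists (panels) in each line (x axis), with genes ordered by value within a line. Filled points have an adjusted p under 0.05 and bars are list medians. Target medians are 0.96 in U266, 0.78 in KMS-11 and RPMI8226 and 0.20 in IM-9, whereas the turnover medians lie between −0.09 and 0.04.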

How the data were processed

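Total RNA was hybridised to Affymetrix arrays. The authors deposited log2 intensity values for 33297 probe sets. Their software was Affymetrix Expression Console 1.3.0, per the submitters' processing notes, and the background correction and normalization are not given in the sources used here. The array model is unsettled: Human Gene 2.0 ST in the design description, but GEO's platform table used here belongs to Human Gene 1.0 ST and lists 21214 of these probe set identifiers; every gene name rests on that table (19460 with 1 symbol). Names were then updated through Entrez identifiers to RefSeq symbols (GRCh38.p14; 19429 matched). Per gene, the probe set with the highest mean was kept. Genes above 6.27 in at least 2 arrays were tested. Differences were fitted in R 4.3.3 with limma 3.58.1 on all genes (2-sided, Benjamini-Hochberg, threshold 0.05): 16 arrays as 8 groups within lines, and 8 line means with the line as a block across lines. Errors are standard errors. The code was tested on simulated data. The table holds no detection calls, and the number of arrays limits the precision. Members and lists were chosen with earlier results of these data known. Named were all members, up to 4 genes per list with calls in the most lines (ties by mean absolute difference), and the 3 genes most like each member; others named were chosen after their values were seen.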

Additional observations from a re-analysis of the deposited data

Results flagged for a closer look

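For 6 of the 8 tested genes the HR effect differed between the 4 lines in the F test of limma, a test that 45.4% of all genes passed. Adjusted p was 1.12e-08 for EGLN3, 5.76e-06 for EPAS1, 0.000854 for HIF1A, 0.00208 for EGLN1, 0.00673 for CITED2 and 0.0075 for VHL. For EGLN3 the KMS-11 effect of 0.10 stood apart from 3.61, 2.33 and 2.78 in RPMI8226, U266 and IM-9. For EPAS1 and VHL the RPMI8226 effects of −1.47 and 0.26 stood apart from those of the other lines. EPAS1 was under the filter level in KMS-11 and U266, so a large fall could hardly have shown in those lines. In parental IM-9 it was little above that level, so a fall could have shown there, but perhaps not in full size. HIF1A and EGLN1 had their distinct effects in U266, at −0.67 and 1.29, and CITED2 in KMS-11, at 0.29.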

How the results depend on the processing

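Over 1024 recomputed effects of the 8 genes, 984 kept their side of the threshold, 26 lost a call, 14 gained one and 0 called effects changed sign. Each call of EGLN1, EGLN3, EPAS1 and HIF1A within a line held under its 25 alternatives. In KMS-11 the genes of the 8 called were 1 rather than 2 with no filter and with arrays centred on their medians (1 to 2 leaving out an array), and in RPMI8226 3 rather than 5 with the arrays of the line alone (3 to 5). Across lines, 2 of the 8 and 88 of all genes passed with a random block of line by condition, 2 and 176 with a replicate block, and 1 gene with RPMI8226 left out, against 0 (0 to 1 leaving out an array). Both block settings were fitted to single arrays and did not take the line as the unit. Their counts therefore do not replace the result by line. Genes called in KMS-11 were 2083 with array weights, against 1045 (346 to 1208), in IM-9 2843 with the line alone, against 4506, and in U266 1391 to 2530 leaving out an array, against 2287. Array numbers are not said to pair samples (deviations of HR and parental array 1 correlated at −0.02 to 0.15 within lines); the replicate block gave 5 of the 8 called in RPMI8226, 3 in U266, 2 in KMS-11 and 3 in IM-9, the last with ARNT (adjusted p = 0.0296), and changed no other within-line call. Values near or under the filter level (EGLN3 in KMS-11, EPAS1 in KMS-11, U266 and IM-9) may have little signal over background. That signal was not measured, as there are no detection calls.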
